A study of Mus musculus with 4 samples.

Results

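The aminoacyl-tRNA synthetase genes of the deposited read count table were described across 4 RNA-seq libraries of B16F10 mouse melanoma. Members were taken by gene symbol, from Aars to Yars with Eprs, Farsa and Farsb, and gene names ending in 2 form the mitochondrial class. This gave 37 of 24527 genes, 20 in the cytosolic and 17 in the mitochondrial class, and all 37 passed a mean of at least 1 CPM. The libraries came from a 2D monoculture of B16F10 cells, a 2D co-culture of B16F10 cells with NIH/3T3 fibroblasts, B16F10–NIH/3T3 spheroids and a tumor grown in a mouse, with 1 library per condition. All are labelled wild type, and no drug or other treatment is named. By the study's methods, the cultured cells were a GFP line of B16F10 sorted by fluorescence, spheroids were grown in hanging drops, and tumors came from cells injected under the skin of both flanks of female C57BL/6 mice 1 year old. For medium, they name RPMI for B16F10 cells and Dulbecco's modified Eagle medium for fibroblasts and spheroids. The medium of the 2D co-culture is not stated. The methods describe the tumor cells as sorted too, whereas the label of the tumor library calls it snap frozen and gives tumor tissue as its source. The methods give n = 3 beside the RNA extraction, but the table has 1 column per condition, and whether a library pools cultures or animals is not stated.

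Aminoacyl-tRNA synthetases join each amino acid to its tRNA, so that the ribosome can read the genetic code. The cytosol and the mitochondrion translate separately, and nuclear genes encode both sets of enzymes. Eprs carries glutamate and proline activities in a single chain, and Farsa and Farsb are the subunits of the phenylalanine enzyme. The genes Gars and Kars make both the cytosolic and the mitochondrial enzyme and are counted here as cytosolic. Mitochondrial glutamine tRNA is charged by Ears2 and then amidated, so no mitochondrial partner of Qars exists. Several cytosolic enzymes are held in the multi-synthetase complex with the scaffold proteins Aimp1, Aimp2 and Eef1e1. Many cytosolic synthetase genes are known targets of ATF4, the transcription factor of the amino acid and stress response.

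The libraries held 118896900 to 150028663 reads, and values are CPM (counts per 1e+06 reads), with library sizes scaled by TMM factors. A member had 1101 to 111366 reads in a library, so that the exact 95% interval of a level spanned 0.588% to 5.95% of it to either side. All intervals cover counting error only, and as each condition has 1 library, differences could not be set against a spread of replicates or given a p-value. The 8 melanocyte markers summed to 11420 to 20122 CPM in every library, but single markers differed. In the spheroid 3 were over 2-fold lower than in the 2D monoculture: Mitf with 70.3 against 416 CPM, Mlana with 160 against 622 CPM and Tyrp1 with 2455 against 6168 CPM. In the tumor 1 was, Sox10 with 237 against 834 CPM. In neither library was any over 2-fold higher. The 10 myeloid markers summed to 1888 CPM in the tumor and 10.9 to 61.0 CPM in the cultures, and all 10 were over 2-fold higher in the tumor than in the 2D monoculture. Of these, Adgre1, Csf1r, Itgam, Cd14, Fcgr3, Tyrobp and C1qa were under 1 CPM in every culture. They passed the limit on the mean through the tumor alone, which fixed their calls in advance. The 7 endothelial markers summed to 258 CPM in the tumor and at most 4.58 CPM in the cultures, and the 5 skeletal muscle markers to 4599 CPM and at most 12.4 CPM. The 8 lymphoid markers reached 56.4 CPM in the tumor and at most 0.286 CPM elsewhere. The 8 fibroblast markers summed to 17.6 CPM in 2D monoculture, 679 CPM in 2D co-culture, 36.5 CPM in spheroids and 2718 CPM in tumor. In such bulk RNA, fewer cells of a type and less RNA per cell cannot be told apart.

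Summed over the 20 cytosolic genes, the level was 5307 CPM in 2D monoculture, 4066 CPM in 2D co-culture, 3955 CPM in spheroids and 3030.3 CPM in tumor. The 17 mitochondrial genes summed to 779.8 CPM in 2D monoculture, 789.7 CPM in 2D co-culture, 745 CPM in spheroids and 499 CPM in tumor. The cytosolic sum was thus lower in each of the other libraries than in the 2D monoculture, and the mitochondrial sum was 101% of it in the 2D co-culture, 95.5% in the spheroid and 64.0% in the tumor. Reads per kilobase of transcript allow a comparison between genes. On this scale Gars, the glycine enzyme, stood highest in the 2D monoculture, the 2D co-culture and the spheroid, with 228, 181 and 217 CPM per kb. In the tumor Dars, the aspartate enzyme, stood highest with 109 CPM per kb, ahead of Nars with 105, Rars with 103 and Gars with 94.2 CPM per kb.

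The highest level of a member was found in the 2D monoculture for 10 cytosolic genes, in spheroids for 6, in the tumor for 3 and in the 2D co-culture for 1. The lowest level was found in the spheroid for 11 cytosolic genes and in the tumor for 9, and never in a 2D culture. For the mitochondrial class the lowest library was the tumor for 9 genes, the spheroid for 6 and the 2D co-culture for 2. The highest level was 1.84 to 7.24 times the lowest for cytosolic genes and 1.06 to 7.44 times for mitochondrial genes. Vars2, Eprs, Vars and Aars2 were among the 5 members with the widest range. The 5 with the narrowest were Nars2, Wars2, Fars2, Mars and Qars.

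**Figure D1:**
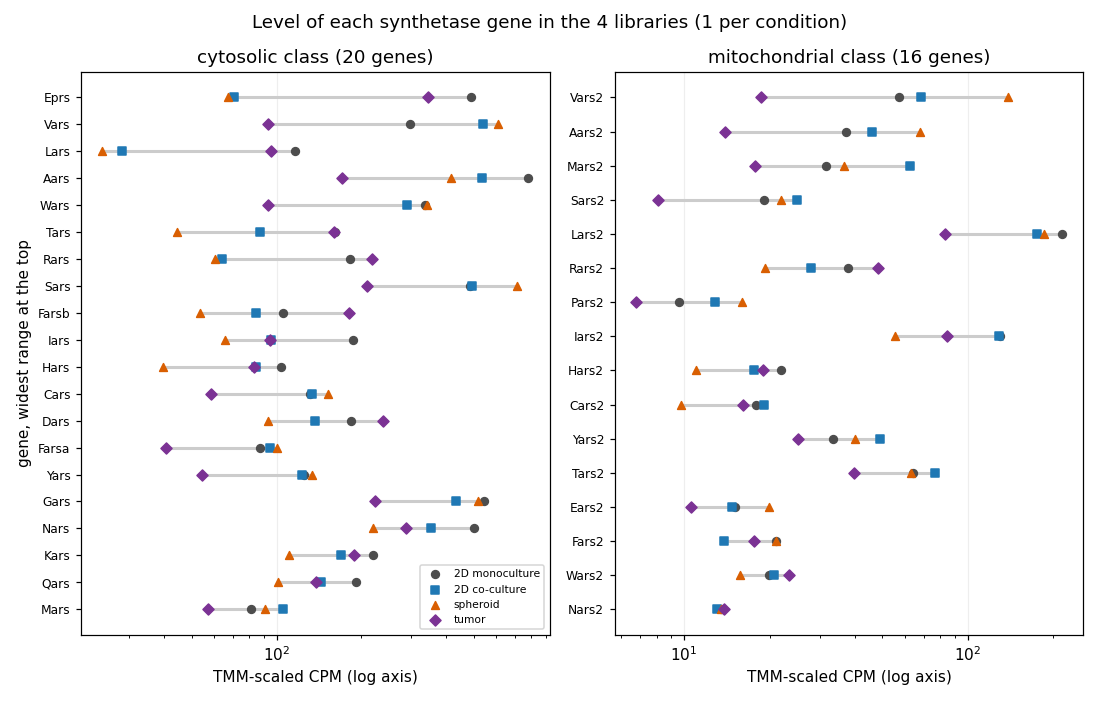
TMM-scaled CPM (log axis) of 36 synthetase genes in 4 libraries, 1 symbol per library, cytosolic genes at the left and mitochondrial genes at the right, ordered by range. Eprs and Lars lie low in both the 2D co-culture and the spheroid, Vars and Aars lie lowest in the tumor, and the 4 symbols of Nars2 lie between 13.1 and 13.8 CPM.

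The comparison of 2D co-culture and 2D monoculture asks what growth beside fibroblasts changes in a flat culture, though whether both had the same medium is not stated. In the 2D co-culture 3 of 37 members, 8.11%, were over 2-fold lower and 0 were higher. They were Eprs, Lars and Rars, the enzymes for glutamate and proline, for leucine and for arginine. Over all 12728 genes above the limit of 1 CPM, 13.3% passed 2-fold in this comparison, with 1 CPM added to each value, 3.79% higher and 9.51% lower, so that the members' share lay under that of all genes. The median log2 ratio of all these genes was 0.0080. Medians and calls over lists are on this log2 scale with 1 CPM added, and ratios of single genes have nothing added. For the cytosolic class the median was -0.35 and for the mitochondrial class 0.051. With upper quartile scaling 1 member, Mars2, passed 2-fold upwards beside the 3 lower ones.

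Eprs, at chr1:185363044-185428360 on the + strand of GRCm38 by the GENCODE annotation, had 489 CPM in 2D monoculture, 70.5 CPM in 2D co-culture, 67.6 CPM in spheroids and 345 CPM in tumor. The levels of the 2D co-culture and the spheroid lie close together and far under those of the 2D monoculture and the tumor. Its log2 ratio of 2D co-culture to 2D monoculture was -2.79 (interval -2.83 to -2.76), where the interval is the exact 95% one of counting error, a 6.94-fold lower level, and only 0.149% of all genes had a lower ratio. Lars, at chr18:42202298-42262194 on the - strand, had 117 CPM in 2D monoculture, 28.3 CPM in 2D co-culture, 24.2 CPM in spheroids and 95.8 CPM in tumor. Again the 2D monoculture and the tumor lay on one side and the 2D co-culture and the spheroid on the other. The log2 ratio of Lars was -2.04 (interval -2.10 to -1.99), and 1.38% of all genes had a lower one. Rars, at chr11:35808381-35834506 on the - strand, had 182 CPM in 2D monoculture, 64.3 CPM in 2D co-culture, 60.4 CPM in spheroids and 218 CPM in tumor. It was the sole gene of these 3 with its highest level in the tumor, and its log2 ratio of 2D co-culture to 2D monoculture was -1.5 (interval -1.54 to -1.46).

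Between spheroid and 2D co-culture these 3 genes differed little, with log2 ratios of -0.062 for Eprs, -0.23 for Lars and -0.091 for Rars. The fibroblast markers stood at 679 CPM in the 2D co-culture and at 36.5 CPM in spheroids, and their part in these ratios was not tested. When the median log2 ratio of genes of like GC content and length was removed, the ratios of 2D co-culture to 2D monoculture stayed at -2.54, -1.85 and -1.48. Just under 2-fold lower in the 2D co-culture were Iars and Tars, with log2 ratios of -0.98 and -0.88. The highest ratios were those of Mars2, at 0.98, and Vars, at 0.86.

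The comparison of spheroid and 2D monoculture sets 3D growth with fibroblasts against the flat culture of tumor cells alone. By the methods the medium differs as well, so that 3D growth, fibroblasts and medium cannot be told apart here. In the spheroid 9 of 37 members were over 2-fold lower and 2 were higher, against 17.9% lower and 11.2% higher over all genes. The share of members called in either direction, 29.7%, lay near the 29.1% of all genes. The classes stood apart in their medians: the cytosolic class had a median log2 ratio of -0.93 and the mitochondrial class of -0.00039, against 0.052 over all genes. The difference between the class medians, cytosolic minus mitochondrial, was -0.93, and -0.58 with the correction for GC content and length. The lower cytosolic genes were Eprs, Lars, Tars, Rars, Iars, Hars and Nars, the 2 lower mitochondrial genes included Iars2, and the higher ones were Vars and Vars2. With total count scaling 16 members were lower and 1 was higher, so that the share of higher calls went from 18.2% to 5.88%.

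Eprs was 7.24-fold lower in the spheroid, with a log2 ratio of -2.86 (interval -2.89 to -2.83), and Lars 4.83-fold lower, at -2.27 (interval -2.33 to -2.22). Tars, the threonine enzyme, had 161 CPM in 2D monoculture, 87.6 CPM in 2D co-culture, 44.5 CPM in spheroids and 161 CPM in tumor. Its spheroid level was thus under that of every other library, and the log2 ratio to the 2D monoculture was -1.86 (interval -1.90 to -1.82). Rars followed with -1.59 (interval -1.63 to -1.56). Iars, the isoleucine enzyme, had 187 CPM in 2D monoculture, 95.2 CPM in 2D co-culture, 65.7 CPM in spheroids and 94.8 CPM in tumor, with the 2D co-culture and the tumor at nearly the same level between the other libraries. Hars, the histidine enzyme, had 104 CPM in 2D monoculture, 84.4 CPM in 2D co-culture, 39.6 CPM in spheroids and 82.9 CPM in tumor, and only the spheroid stood apart. Nars, the asparagine enzyme, had 499.9 CPM in 2D monoculture, 353 CPM in 2D co-culture, 219.9 CPM in spheroids and 287 CPM in tumor, with log2 ratios to the 2D monoculture of -1.18 in the spheroid, -0.80 in the tumor and -0.50 in the 2D co-culture.

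Of the cytosolic genes, Aars, Qars, Farsb, Dars and Kars were just inside 2-fold in the spheroid. They are the enzymes of alanine, glutamine, phenylalanine, aspartate and lysine, with log2 ratios of -0.91, -0.91, -0.97, -0.98 and -0.99. Qars had 191 CPM in 2D monoculture, 144 CPM in 2D co-culture, 102 CPM in spheroids and 138 CPM in tumor, and Kars had 221 CPM in 2D monoculture, 169.5 CPM in 2D co-culture, 111 CPM in spheroids and 188 CPM in tumor. Both were highest in the 2D monoculture and lowest in the spheroid. Dars had 184 CPM in 2D monoculture, 137 CPM in 2D co-culture, 93.1 CPM in spheroids and 238 CPM in tumor, and here the tumor was highest.

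Vars, the valine enzyme at chr17:35000987-35016322 on the + strand, ran the other way and had 297 CPM in 2D monoculture, 540.1 CPM in 2D co-culture, 607 CPM in spheroids and 93.7 CPM in tumor. The spheroid's log2 ratio to the 2D monoculture was 1.03 (interval 1.02 to 1.05). The mitochondrial valine gene Vars2, at chr17:35655634-35667592 on the - strand, had 57.4 CPM in 2D monoculture, 68.1 CPM in 2D co-culture, 138 CPM in spheroids and 18.6 CPM in tumor. Its ratio was 1.27 (interval 1.23 to 1.31), the highest of all members. Both genes are rich in GC, with 60.9% and 58.6%, and after the correction for GC content and length their log2 ratios were 0.31 and 0.57, under 2-fold. Sars, the serine enzyme, had 483 CPM in 2D monoculture, 494 CPM in 2D co-culture, 712 CPM in spheroids and 209 CPM in tumor, which put the spheroid above all other libraries, at a log2 ratio of 0.56 (interval 0.55 to 0.57) to the 2D monoculture.

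**Figure D2:**
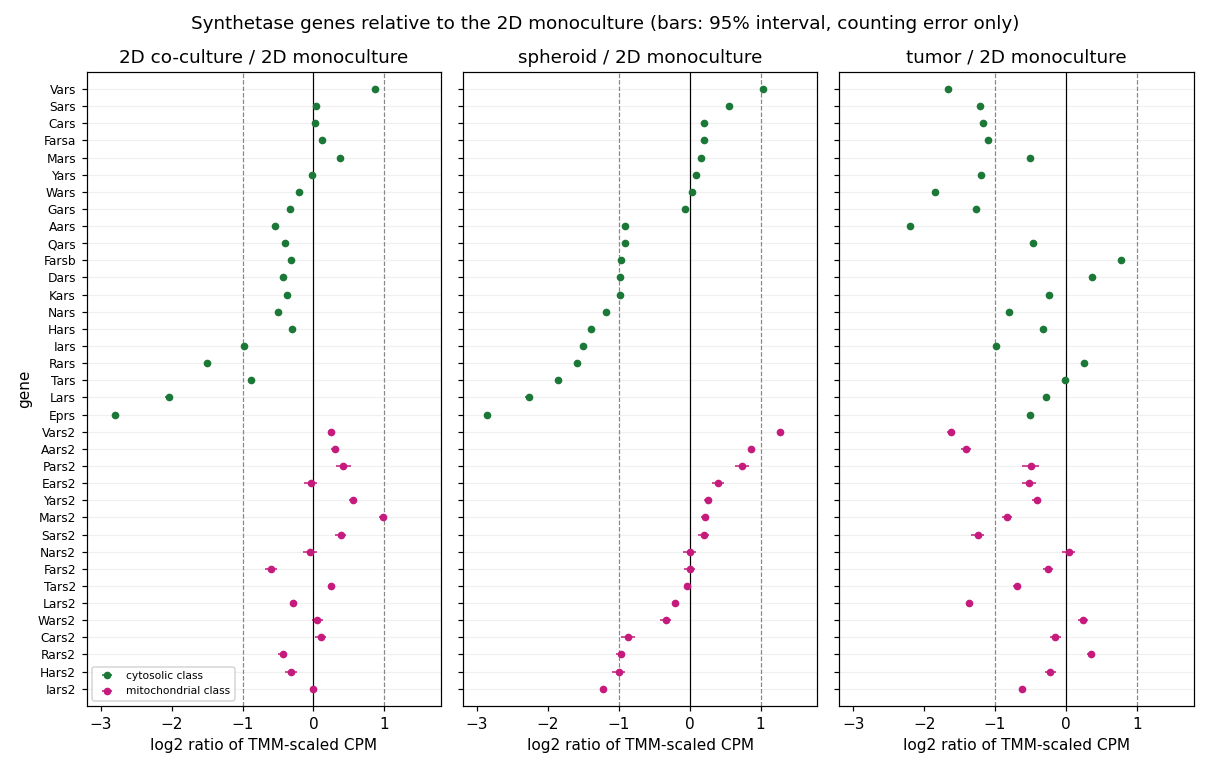
Log2 ratio of TMM-scaled CPM to the 2D monoculture for 36 synthetase genes, with the 2D co-culture, the spheroid and the tumor from left to right. Points are genes, bars are 95% intervals of counting error, and dashed lines mark 2-fold. Eprs, Lars and Rars lie beyond 2-fold in the first 2 panels and not in the tumor.

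The cytosolic genes were also summed by membership of the multi-synthetase complex, a split made after their values were seen. Its members are Dars, Eprs, Iars, Kars, Lars, Mars, Qars and Rars. The 8 genes of the complex summed to 1652 CPM in 2D monoculture, 814 CPM in 2D co-culture, 615 CPM in spheroids and 1374 CPM in tumor. The 2D co-culture thus held 49.3% of the 2D monoculture's sum and the spheroid 37.2%, and the tumor held 83.2%. The 12 cytosolic genes outside the complex summed to 3655 CPM in 2D monoculture, 3252 CPM in 2D co-culture, 3341 CPM in spheroids and 1656 CPM in tumor, and here it was the tumor that stood low, at 45.3% of the 2D monoculture. Relative to the 2D monoculture, the spheroid had a median log2 ratio of -1.24 over the complex and of -0.020 over the genes outside it, and the tumor of -0.37 and -1.17. The genes of the complex also have less GC, with a median of 47.7% against 52.9%. After the correction for GC content and length, the medians were -1.10 and -0.30 in the spheroid and -0.12 and -0.44 in the tumor. Without Eprs, Lars and Rars, the 5 other genes of the complex had a median of -0.98 in spheroids and -0.40 in 2D co-culture. In the 2D co-culture the genes outside the complex had -0.25, so that the gap was small there. The 5 genes summed to 75.4% of the 2D monoculture in the 2D co-culture and to 53.6% in the spheroid. Outside the complex these shares were 89.0% and 91.4%. Mars, the methionine enzyme, was the exception in the complex with 81.3 CPM in 2D monoculture, 105 CPM in 2D co-culture, 91.2 CPM in spheroids and 57.0 CPM in tumor, at a log2 ratio of 0.17 in the spheroid.

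**Figure D3:**
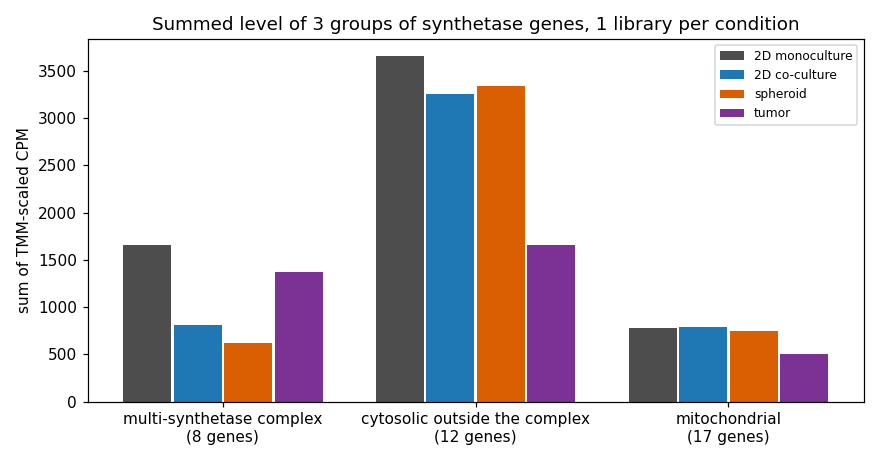
Sum of TMM-scaled CPM over 8 genes of the multi-synthetase complex, 12 cytosolic genes outside it and 17 mitochondrial genes, with 1 bar per library. The complex stands at 814 and 615 CPM in the 2D co-culture and the spheroid against 1652 CPM in the 2D monoculture, and the genes outside it are lowest in the tumor.

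The scaffold proteins of the complex differed among themselves. Aimp1, a scaffold subunit, had 83.7 CPM in 2D monoculture, 89.0 CPM in 2D co-culture, 58.6 CPM in spheroids and 117 CPM in tumor, lowest in the spheroid like most enzymes of the complex. Aimp2, another scaffold subunit, had 40.0 CPM in 2D monoculture, 66.6 CPM in 2D co-culture, 41.8 CPM in spheroids and 47.6 CPM in tumor. Eef1e1, the smallest scaffold subunit, had 65.8 CPM in 2D monoculture, 112 CPM in 2D co-culture, 101 CPM in spheroids and 57.2 CPM in tumor, so that the cultures grown with fibroblasts were above the 2D monoculture for this gene. Of 15 partner genes of aminoacylation, 2 were over 2-fold higher and 3 over 2-fold lower in the spheroid than in the 2D monoculture, 0 in either direction in the 2D co-culture, and 1 was higher in the tumor. Their shares in the spheroid, 13.3% higher and 20.0% lower, lay near the 11.2% and 17.9% of all genes. The lower ones in the spheroid were Gatb, a subunit of the mitochondrial amidotransferase that acts after Ears2, Sepsecs, which makes selenocysteine on its tRNA, and Trnt1, which adds the CCA end to tRNAs. Trnt1 had 53.6 CPM in 2D monoculture, 34.4 CPM in 2D co-culture, 18.5 CPM in spheroids and 56.1 CPM in tumor. Gatb had 27.0 CPM in 2D monoculture, 16.1 CPM in 2D co-culture, 10.2 CPM in spheroids and 25.6 CPM in tumor. Both had their lowest level in the spheroid and their next lowest in the 2D co-culture. The higher ones were Aarsd1, an editing protein for mischarged alanine tRNA, with 61.5 CPM in 2D monoculture, 88.9 CPM in 2D co-culture, 134 CPM in spheroids and 45.6 CPM in tumor, and Pstk, the kinase that acts before Sepsecs. Sepsecs and Pstk, consecutive steps of selenocysteine synthesis, differed in direction, with 14.2 CPM in 2D monoculture, 9.53 CPM in 2D co-culture, 6.18 CPM in spheroids and 9.33 CPM in tumor for the former and 18.5 CPM in 2D monoculture, 27.2 CPM in 2D co-culture, 41.1 CPM in spheroids and 16.9 CPM in tumor for the latter.

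The comparison of tumor and 2D monoculture sets growth in the animal against the flat culture. In the tumor 12 of 37 members, 32.4%, were over 2-fold lower and 0 were higher, against 33.1% called over all genes, 18.2% lower and 14.8% higher. The lower cytosolic genes were Aars, Wars, Vars, Gars, Sars, Yars, Cars and Farsa, none of them in the complex, and the lower mitochondrial genes were Vars2, Aars2, Lars2 and Sars2. The median log2 ratio was -0.65 for the cytosolic class and -0.44 for the mitochondrial class, against -0.14 over all genes. With total count or upper quartile scaling 7 members were lower and 1, Farsb, was higher. With the correction for GC content and length 3 members, Gars, Wars and Mars2, were lower and 0 higher, against 700 and 1976 of 12466 genes. The class medians were then -0.30 and -0.085. Markers of myeloid, endothelial, lymphoid, fibroblast and muscle cells were high in this library, as given above, and their part in these ratios was not tested.

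Aars, the alanine enzyme, had 782 CPM in 2D monoculture, 535 CPM in 2D co-culture, 417 CPM in spheroids and 171 CPM in tumor, which put the tumor far under all cultures. The tumor's log2 ratio to the 2D monoculture was -2.19 (interval -2.21 to -2.17), and 1.54% of all genes had a lower one. Wars, the tryptophan enzyme, had 336 CPM in 2D monoculture, 291 CPM in 2D co-culture, 342 CPM in spheroids and 93.4 CPM in tumor, with the cultures close to each other and the tumor apart at a ratio of -1.85 (interval -1.87 to -1.82). Wars is also known as a gene induced by interferon gamma. All 13 genes of the interferon list were over 2-fold higher in the tumor than in the 2D monoculture, against 14.8% of all genes. Among them was Gbp2 with 112 CPM against 5.0 CPM. Cxcl9, Psmb8 and Psmb9 of this list were under 1 CPM in every culture. They passed the filter through the tumor alone, which fixed their calls in advance. Wars went opposite to the genes of this list.

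Gars had 542 CPM in 2D monoculture, 432 CPM in 2D co-culture, 518 CPM in spheroids and 224 CPM in tumor, so that the tumor lay under the cultures and the cultures differed little. Cars, the cysteine enzyme, had 132 CPM in 2D monoculture, 133 CPM in 2D co-culture, 152 CPM in spheroids and 58.8 CPM in tumor. Yars, the tyrosine enzyme, had 125 CPM in 2D monoculture, 123 CPM in 2D co-culture, 134 CPM in spheroids and 54.4 CPM in tumor. Gars, Cars and Yars thus shared a level in the cultures and a lower one in the tumor, with log2 ratios of tumor to 2D monoculture of -1.27, -1.17 and -1.20. The highest ratio of the tumor was that of Farsb, at 0.78, and all 3 cultures lay under the tumor.

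The subunits of the phenylalanine enzyme, which act as a tetramer of both chains, differed in direction. Farsa had 87.3 CPM in 2D monoculture, 94.8 CPM in 2D co-culture, 101 CPM in spheroids and 40.6 CPM in tumor. Farsb had 105 CPM in 2D monoculture, 84.5 CPM in 2D co-culture, 53.8 CPM in spheroids and 181 CPM in tumor. Farsa was lowest in the tumor and Farsb highest there. The reads on Farsa were 0.828 times those on Farsb in the 2D monoculture, 1.12 times in the 2D co-culture, 1.87 times in the spheroid and 0.224 times in the tumor, a ratio within each library that no scaling changes. The GC content was 56.6% for Farsa and 46.3% for Farsb, and after the correction their log2 ratios of tumor to 2D monoculture were -0.40 and 0.35.

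Spheroid and tumor were compared to ask how near the 3D model comes to the tumor. The synthetase genes were over 2-fold higher in the spheroid for 14 and lower for 9 of 37 members, 62.2% in all, against 54.4% over all genes, of which 26.8% were higher and 27.6% lower. In the cytosolic class 8 were higher, 7 lower and 5 within 2-fold. The median log2 ratio was -0.41 for the cytosolic class and 0.65 for the mitochondrial class, with 0.075 over all genes. Vars2 and Vars had the highest ratios, at 2.89 (interval 2.84 to 2.95) and 2.70 (interval 2.67 to 2.72), and Eprs was among the lowest, at -2.35 (interval -2.39 to -2.32). With total count scaling 7 were higher and 12 lower, a share of higher calls of 36.8% instead of 60.9%. With the correction for GC content and length 4 were higher and 8 lower, against 2054 and 2662 of 12466 genes. Vars2 and Vars then stood at 0.97 and 0.78, under 2-fold. Mars2 was highest at 2.56, from 1.01 before the correction with 1 CPM added. Its transcript is the longest of the members, with 11294 bases, and the lowest in GC, with 38.8%. The 2D co-culture was over 2-fold above the tumor for 12 members and under it for 5, 45.9% in all, against 39.7% of all genes, with 18.8% higher and 20.9% lower. With total count scaling these became 7 and 8, a share of higher calls of 46.7% instead of 70.6%. Comparisons with the tumor share its library, as those with the 2D monoculture share that library, so they do not support each other.

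Spheroid and 2D co-culture were both grown with fibroblasts and differ in 3D growth, and whether their media differed is not stated. Only Vars2 was over 2-fold higher in the spheroid and only Hars and Iars2 lower, 8.11% of the members against 18.0% of all genes, of which 9.54% were higher and 8.46% lower. With total count scaling 0 were higher and 3 lower, which takes the share of higher calls from 33.3% to 0. The log2 ratio was -1.09 (interval -1.14 to -1.05) for Hars and 1.02 (interval 0.98 to 1.06) for Vars2. Iars2, the mitochondrial isoleucine enzyme, had 129 CPM in 2D monoculture, 129 CPM in 2D co-culture, 55.3 CPM in spheroids and 84.6 CPM in tumor. Its 2D cultures were alike and its spheroid level was the lowest, at a log2 ratio of -1.22 (interval -1.26 to -1.18) to the 2D co-culture. By the GENCODE annotation 24.2% of the exon bases of Iars2 overlap exons of genes on the opposite strand, and the counting is not stated to use strand.

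In the mitochondrial class Rars2, the arginine enzyme, had 37.9 CPM in 2D monoculture, 28.1 CPM in 2D co-culture, 19.3 CPM in spheroids and 48.3 CPM in tumor. The order of its libraries, from tumor over 2D monoculture and 2D co-culture to spheroid, was that of Farsb, Dars and Rars as well. Aars2, the alanine enzyme, ran in the reverse order with 37.2 CPM in 2D monoculture, 46.0 CPM in 2D co-culture, 67.8 CPM in spheroids and 14.0 CPM in tumor. Pars2, the proline enzyme, had 9.57 CPM in 2D monoculture, 12.8 CPM in 2D co-culture, 16 CPM in spheroids and 6.78 CPM in tumor, in the same order of libraries as Aars2 and Vars2. Mars2, the methionine enzyme, stood out by its 2D co-culture level, with 31.6 CPM in 2D monoculture, 62.3 CPM in 2D co-culture, 36.7 CPM in spheroids and 17.7 CPM in tumor. Its log2 ratio of 2D co-culture to tumor was 1.81 (interval 1.75 to 1.88). Sars2, the serine enzyme, had 19.2 CPM in 2D monoculture, 25.1 CPM in 2D co-culture, 22 CPM in spheroids and 8.09 CPM in tumor. Here the cultures were close and the tumor low. Lars2, the leucine enzyme, had 215 CPM in 2D monoculture, 176 CPM in 2D co-culture, 186 CPM in spheroids and 82.9 CPM in tumor, again with the tumor apart.

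The others of this class varied less. Yars2, for tyrosine, had 33.5 CPM in 2D monoculture, 49.2 CPM in 2D co-culture, 39.9 CPM in spheroids and 25.1 CPM in tumor. Tars2, for threonine, had 64.3 CPM in 2D monoculture, 76.3 CPM in 2D co-culture, 62.9 CPM in spheroids and 39.7 CPM in tumor. In both the 2D co-culture was highest and the tumor lowest. Ears2, for glutamate, had 15.1 CPM in 2D monoculture, 14.7 CPM in 2D co-culture, 19.9 CPM in spheroids and 10.5 CPM in tumor. Cars2, for cysteine, had 17.9 CPM in 2D monoculture, 19.1 CPM in 2D co-culture, 9.74 CPM in spheroids and 16.1 CPM in tumor. Cars2 was low in the spheroid alone, whereas Ears2 was highest there. Hars2, for histidine, had 22 CPM in 2D monoculture, 17.7 CPM in 2D co-culture, 11 CPM in spheroids and 18.9 CPM in tumor, in the order of libraries of its cytosolic partner except for the tumor. Hars and Hars2 lie head to head, and 4.56% of the exon bases of Hars2 overlap those of Hars. Fars2, for phenylalanine, had 21.0 CPM in 2D monoculture, 13.9 CPM in 2D co-culture, 21.0 CPM in spheroids and 17.6 CPM in tumor. Wars2, for tryptophan, had 19.9 CPM in 2D monoculture, 20.7 CPM in 2D co-culture, 15.7 CPM in spheroids and 23.4 CPM in tumor. Nars2, for asparagine, had 13.5 CPM in 2D monoculture, 13.1 CPM in 2D co-culture, 13.5 CPM in spheroids and 13.8 CPM in tumor, the flattest profile of all members. In all, 11 of the 37 members, 29.7%, passed 2-fold in none of the 6 comparisons, against 30.4% of all genes. They were Cars2, Ears2, Fars2, Hars2, Kars, Mars, Nars2, Qars, Tars2, Wars2 and Yars2. Hars2 is among them only with 1 CPM added, and without it its spheroid level was 2.004-fold under that of the 2D monoculture.

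Set beside their mitochondrial partners, cytosolic genes had the lower log2 ratio of spheroid to 2D monoculture in 13 of 18 pairs, with Eprs paired with Ears2 and with Pars2, and Farsa and Farsb each with Fars2. The widest gaps were those of Eprs, at -2.86 against 0.74 for Pars2, of Lars, at -2.27 against -0.21 for Lars2, and of Tars, at -1.86 against -0.032 for Tars2. The reads on Lars2 were 1.84 times those on Lars in the 2D monoculture, 6.21 times in the 2D co-culture, 7.69 times in the spheroid and 0.865 times in the tumor. For tumor to 2D monoculture the cytosolic gene had the lower ratio in 12 of 18 pairs, and for 2D co-culture to 2D monoculture in 13.

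The log2 ratios of the members followed the GC content of their transcripts, as did those of all genes. Across the 37 members Spearman's correlation between GC content and log2 ratio reached 0.643 for spheroid to 2D monoculture, 0.469 for 2D co-culture to 2D monoculture, -0.627 for tumor to 2D monoculture and 0.72 for spheroid to tumor. Across 12466 genes the values were 0.487, 0.212, -0.388 and 0.546. These are correlations across genes of the same libraries, which are not independent replicates, and they share the library compared. The 9 members lower in the spheroid than in the 2D monoculture had 45.9% to 50.4% GC, and the 2 higher ones 58.6% and 60.9%. The 12 members lower in the tumor had 50.3% to 60.9%. After the correction, Eprs, Lars, Hars, Tars, Aars, Rars, Cars2, Qars and Kars were over 2-fold lower in the spheroid, with Mars2 higher. These are 9 and 1 of 37 members, against 1385 lower and 1137 higher of 12466 genes. The transcript of Mars2 is the longest of the members, with 11294 bases, and the lowest in GC, with 38.8%. Before the correction, the tenth of genes with GC near that of Eprs had a median log2 ratio of -0.28.

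**Figure D4:**
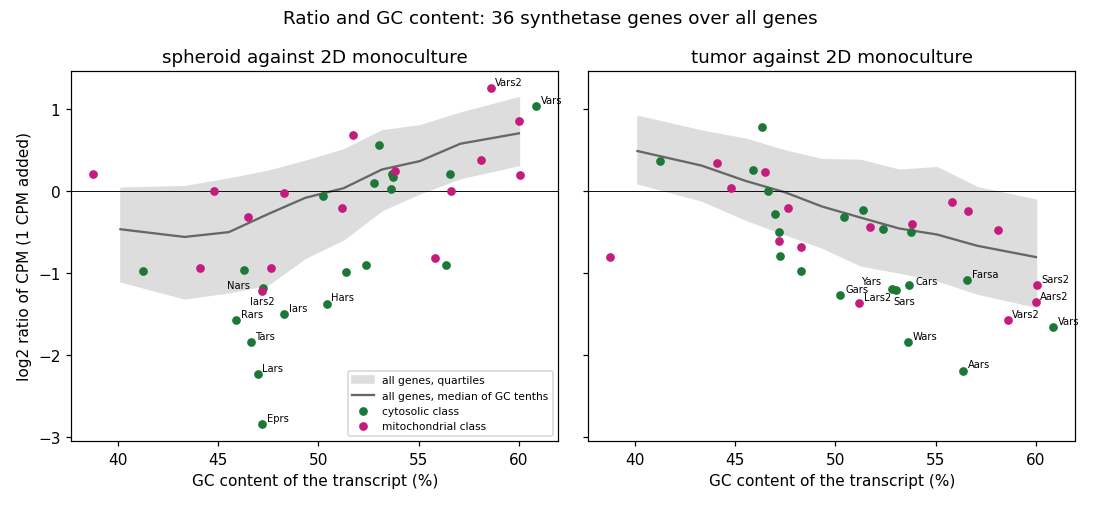
Log2 ratio of CPM, with 1 CPM added, against the GC content of the transcript in percent, for spheroid (left) and tumor (right) to 2D monoculture. Points are 36 members, the line and band are the median and quartiles of all genes in 10 classes of GC content, and named points passed 2-fold. At the left Eprs and Lars lie lowest, and Tars, Rars, Iars and Hars are among the others under the band. The named points of the right panel lie at 50.3% GC or more.

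ATF4 and its targets were set beside the synthetases, as several synthetase genes are known targets. Of 20 genes of this list, 12, 60%, were over 2-fold higher in the spheroid than in the 2D monoculture and 0 lower, against 11.2% and 17.9% of all genes. Their median log2 ratio was 1.24, where the cytosolic synthetases had -0.93. In the tumor 12, 60%, were lower and 0 higher, against 18.2% and 14.8% of all genes, with a median of -1.39, beside -0.65 for the cytosolic synthetases. In the 2D co-culture 3, 15%, were higher and 2, 10%, lower, against 3.79% and 9.51% of all genes, so that the lower share lay near that of all genes. Atf4 itself had 671 CPM in 2D monoculture, 1229 CPM in 2D co-culture, 2713 CPM in spheroids and 407 CPM in tumor. Trib3, a feedback target of ATF4, had 191 CPM in 2D monoculture, 163 CPM in 2D co-culture, 1279 CPM in spheroids and 34.5 CPM in tumor. Asns, which makes asparagine and is a classic target of ATF4, had 218 CPM in 2D monoculture, 292 CPM in 2D co-culture, 384 CPM in spheroids and 135 CPM in tumor. All 3 were highest in the spheroid and lowest in the tumor, but not every gene of the list was. Phgdh, Shmt2, Mthfd2 and Psat1 were highest in the 2D co-culture, and Psat1 was lowest in the spheroid. Slc7a11 was highest in the 2D monoculture, Nupr1 was lowest in the 2D monoculture and Ddit4 in the 2D co-culture. Among the synthetases Vars, Sars, Wars, Cars, Farsa and Yars had the spheroid highest and the tumor lowest, and so had the mitochondrial genes Vars2, Aars2, Pars2 and Ears2. Aars and Nars, by contrast, were highest in the 2D monoculture. After the correction for GC content and length, the median of the ATF4 list was 0.81 in the spheroid and -0.75 in the tumor, and that of the cytosolic class was -0.79 and -0.30.

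**Figure D5:**
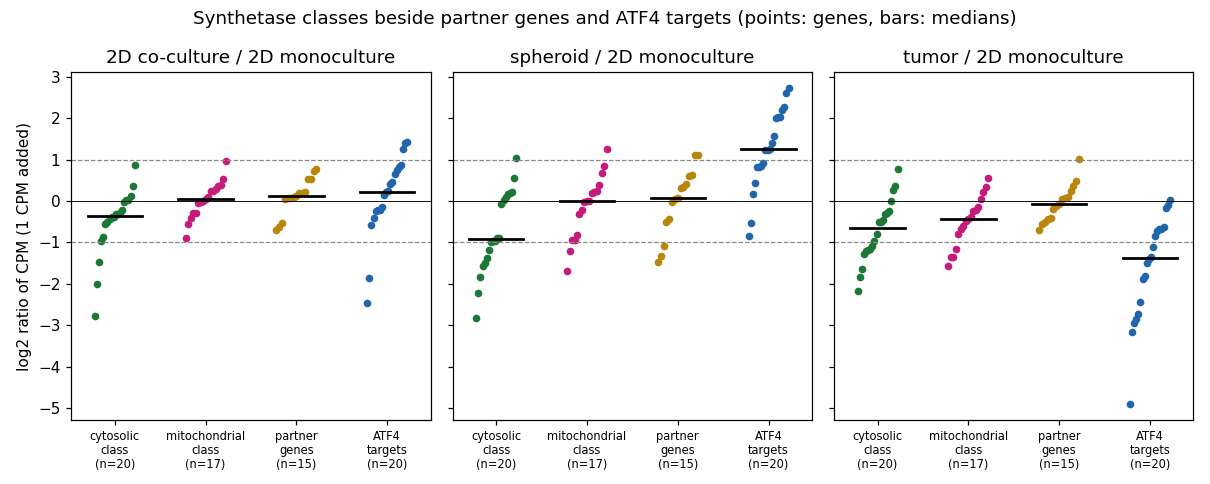
Log2 ratio of CPM to the 2D monoculture, with 1 CPM added, for 20 cytosolic and 17 mitochondrial synthetase genes, 15 partner genes and 20 ATF4 targets, in the 2D co-culture, the spheroid and the tumor. Points are genes, bars are medians and dashed lines mark 2-fold. The ATF4 list has its median at 1.24 in the spheroid, where the cytosolic class has -0.93, and both medians lie under 0 in the tumor.

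Promoter sequences from RefSeq on GRCm38.p6, 250 bases before to 50 after the start of each gene, were at hand for 27 of 37 members. Among those not used here were Pars2, Cars, Rars, Wars, Vars, Lars, Hars2, Hars and Nars. The 27 promoters were searched on both strands for TGATGNAA, the core of the element that ATF4 binds with C/EBP partners, whose reverse complement is TTNCATCA. The motif was found in 5 of 13 cytosolic members with a promoter sequence, 0 of 14 mitochondrial members and 4.51% of all 27025 genes. The windows below are shown because each holds a match, with the motif in capitals, on the strand of the gene from 5′ to 3′.
Aars, chr8:111033840-111033869, + strand: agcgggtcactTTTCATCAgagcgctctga
Gars, chr6:55037960-55037989, + strand: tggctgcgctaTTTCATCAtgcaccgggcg
Iars, chr13:49682126-49682155, + strand: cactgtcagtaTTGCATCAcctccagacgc
Tars, chr15:11399655-11399684, - strand: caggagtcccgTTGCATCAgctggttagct
Yars, chr4:129189895-129189924, + strand: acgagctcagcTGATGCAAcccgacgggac
Counted from the start of the gene, these matches begin at 10 for Aars, -30 for Gars, 8 for Iars, -15 for Tars and 4 for Yars. Of these, only the match of Yars reads in the direction of the gene. A match is a stretch of letters and no measured site. The genes with it differed among themselves, and their log2 ratios of spheroid to 2D monoculture were -0.91 for Aars, -0.067 for Gars, -1.51 for Iars, -1.86 for Tars and 0.095 for Yars. Their median in the spheroid was -0.91, against -0.93 for the 8 cytosolic genes searched without a match. In the tumor 3 of these 5 genes and 2 of the 8 were over 2-fold lower than in the 2D monoculture, against 18.2% of all genes. The medians were -1.19 and -0.48. Both groups are small and were set up after the values were seen. After the correction for GC content and length 1 of the 5 and 0 of the 8 were lower, against 700 of 12466 genes. The medians were then -0.59 and -0.059.

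Some members share exon bases with other genes, so that reads can be split or dropped in counting. The overlap was 15.1% of exon bases for Aars, with Exosc6 on the same strand and a small RNA gene, 10.7% for Fars2, 9.47% for Farsb, 8.52% for Vars2 and 7.97% for Hars. Mars shares 1.99% of its exon bases with Ddit3, a target of ATF4 on the opposite strand, which had 168 CPM in 2D monoculture, 141 CPM in 2D co-culture, 499 CPM in spheroids and 58.9 CPM in tumor. For Eprs, Lars, Rars, Tars, Vars and Wars no exon base overlapped another gene, and under 1% of their 100-base stretches occurred in a transcript of any other gene.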

How the data were processed

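RNA was measured in 4 libraries by poly(A) enriched RNA-seq with the NEBNext Ultra II kit. The authors deposited raw read counts per gene in a single table with 1 column per condition. The submitters' processing notes name Trimmomatic, STAR, featureCounts and mm10, without versions or a strand setting. Columns were matched to samples by their labels. Counts were scaled to CPM with TMM factors (edgeR 4.0.16 in R 4.3.3; DESeq2 1.42.0 for its size factors). Genes whose mean over the libraries reached 1 CPM were kept, and a call is a ratio over 2-fold after adding 1 CPM. With 1 library per condition no test was made. Levels carry exact Clopper-Pearson 95% intervals and ratios exact binomial intervals, both of counting error only, since PCR reads without molecular identifiers are not independent molecules. Ratios were also corrected by the median of genes in the same of 10 GC classes by 10 length classes, computed in Python 3.11.15 with the longest RefSeq-matched GENCODE transcript (97.9% of genes matched). The 2-fold calls, the correction for GC content and length and the intervals of ratios were tested on simulated counts for 1 of the comparisons, spheroid against 2D monoculture. The scaling, the intervals of levels, the list summaries and the motif search had no such test.

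Members were named by rule, with the 5 of widest and the 5 of narrowest range singled out. Some results on single items are not reported here. Other genes come from lists of aminoacylation partners, ATF4 targets, mitochondrial translation factors, mitochondrial ribosomal proteins, interferon genes and cell type markers. Members and lists were chosen with earlier results of these data known. The complex and the groups with and without the promoter motif were set up after the values were seen. A planned search of the proteins for class signatures was not run. Alternatives were other scalings, filters, a smaller added value, a fold of 1.5, and leaving out Gars and Kars.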

Additional observations from a re-analysis of the deposited data

How the results depend on the processing

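No paired analysis was possible because there is 1 library for each condition, and for the same reason no library could be left out. Each of 42 counts, class medians and differences of class medians was set against its main value. Each stayed within 1.5 times of it (counts) or close to it on the log2 scale with DESeq2 size factors, with 0.1 CPM added and without Gars and Kars. With no filter or a mean of at least 10 CPM they could not change. Every member passes either filter, and the lowest mean, that of Pars2, was 11.3 CPM. With total counts the spheroid against the 2D monoculture had 0 cytosolic genes higher, 12 cytosolic and 4 mitochondrial genes lower. The tumor against the 2D monoculture then had 1 cytosolic gene higher and 4 lower, as with upper quartile scaling. The spheroid against the tumor had 4 cytosolic and 3 mitochondrial genes higher and 4 mitochondrial genes lower, the 2D co-culture against the tumor 3 cytosolic genes higher and 2 mitochondrial genes lower, and the spheroid against the 2D co-culture 2 cytosolic genes lower and 0 mitochondrial genes higher. Total counts moved the median of all genes by 0.23 (log2) for tumor to 2D monoculture, by -0.34 for spheroid to tumor and by -0.26 for 2D co-culture to tumor, and turned the cytosolic median of 2D co-culture to tumor from 0.18 to -0.091. With upper quartile scaling 1 mitochondrial gene was higher in the 2D co-culture than in the 2D monoculture.

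With the correction for GC content and length the spheroid against the 2D monoculture had 0 cytosolic genes higher and 1 mitochondrial gene lower, the 2D co-culture 1 mitochondrial gene higher, and the tumor 2 cytosolic and 1 mitochondrial gene lower. The spheroid against the tumor had 2 cytosolic and 2 mitochondrial genes higher, a mitochondrial median of 0 and a difference of class medians of -0.32 in place of -1.06. The 2D co-culture against the tumor had 1 cytosolic and 2 mitochondrial genes higher and 2 mitochondrial genes lower. The spheroid against the 2D co-culture had 0 mitochondrial genes higher, and its difference of class medians went from 0.063 to -0.32. The cause of these changes was not tested. Over 12466 genes so corrected, 510 were higher and 849 lower in the 2D co-culture than in the 2D monoculture. For 2D co-culture against tumor these counts were 1058 and 2395, and for spheroid against 2D co-culture 866 and 827.

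With a fold of 1.5 the spheroid against the 2D monoculture had 12 cytosolic genes lower and 3 mitochondrial genes higher and 5 lower. The 2D co-culture against the 2D monoculture had 1 cytosolic gene higher and 5 lower, and 1 mitochondrial gene in each direction. The tumor against the 2D monoculture had 1 cytosolic gene higher and 7 mitochondrial genes lower. The spheroid against the tumor had 5 mitochondrial genes lower, the 2D co-culture against the tumor 9 mitochondrial genes higher and 2 lower, and the spheroid against the 2D co-culture 5 cytosolic and 5 mitochondrial genes lower. Read depth does not limit these values, as each member had 1101 reads or more, whereas the spread between libraries of a condition is unknown.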

Other observations

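The other protein genes of mitochondrial translation were read beside the mitochondrial synthetases. The 78 genes for mitochondrial ribosomal proteins summed to 5124 CPM in 2D monoculture, 6734 CPM in 2D co-culture, 6957 CPM in spheroids and 4998 CPM in tumor. Their median log2 ratio to the 2D monoculture, with 1 CPM added, was 0.40 in the 2D co-culture, 0.39 in the spheroid and 0.12 in the tumor, where the mitochondrial synthetases had 0.051, -0.00039 and -0.44. Of these 78 genes 5, 6.41%, were over 2-fold higher and 0 lower in the spheroid, against 11.2% and 17.9% of all genes. In the tumor 1, 1.28%, was higher and 3, 3.85%, were lower, against 14.8% and 18.2%. These shares lay under those of all genes. The 10 mitochondrial translation factors went the other way in the spheroid, with 3 over 2-fold lower, 0 higher and a median of -0.67, and their sum was 447 CPM in 2D monoculture, 415 CPM in 2D co-culture, 298 CPM in spheroids and 364 CPM in tumor. In the 2D co-culture 2 of the 10 were lower, and in the tumor 0 passed 2-fold in either direction. The median GC content was 50.5% for the ribosomal protein genes and 47.8% for the factors.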
